A study of Mus musculus with 16 samples.

Results

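The IL-36 system was followed in mouse ear skin through 5 genes: the agonists Il1f6 (IL-36 alpha), Il1f8 (IL-36 beta) and Il1f9 (IL-36 gamma), the receptor antagonist Il1f5 (IL-36Ra) and the receptor Il1rl2 (IL-36R). They were chosen by gene name, and all 5 of 5 were found among the 48440 genes of the deposited count table. All 5 had enough counts to be tested, as did 17604 genes in all.

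IL-36 cytokines are members of the IL-1 family that are made mainly by epithelial cells, above all by keratinocytes. The agonists bind the receptor encoded by Il1rl2, which then pairs with the shared accessory chain Il1rap and signals through Myd88 and IRAK kinases to NF-kB and MAP kinases, while the antagonist occupies the receptor without recruiting the accessory chain. The pathway is known from psoriasis-like skin inflammation, and loss of the antagonist causes a generalised pustular form of the disease in humans.

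The 16 libraries came from ear skin of B6 mice in 4 groups of 4. PMA-treated HFD ears came from mice given a high-fat diet (HFD) for 8 weeks and were taken 24 h after 200 ng of PMA per ear, a phorbol ester that turns on protein kinase C and irritates skin. PMA-treated ND ears had the same PMA treatment in mice on a normal diet (ND), untreated HFD ears had the high-fat diet alone, and untreated ND ears had neither. The treatment protocol reads alike for all samples, so the groups rest on the diet and treatment labels. The sources used here give neither the sex or age of the mice nor a vehicle for the untreated ears. Nothing in the labels says whether replicate libraries came from separate mice, so p-values measure the spread between these libraries, which may be technical.

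Library totals ran from 7739487 to 15571389 counts, and a member had between 49 counts (Il1f6) and 6479 counts (Il1f5) in a library. Library IDs fell into 2 series whose meaning is not given: all 4 untreated ND libraries and replicate 1 of untreated HFD shared 1 series, and the other 11 libraries the other. The diet contrast in PMA-treated skin therefore lies within 1 series, while PMA and ID series cannot be told apart by the ND libraries alone. In untreated skin diet and ID series largely coincide. Only replicate 1 of untreated HFD shares the series of the untreated ND libraries. Markers of epidermal keratinocytes were high throughout, with a summed level of 18457 to 33803 CPM, the read count normalised to library size, over 10 genes. Hair shaft and inner root sheath genes stood apart in 3 libraries. Summed over 8 genes, replicate 1 of PMA-treated HFD had 2620 CPM. Replicates 1 and 2 of untreated HFD had 2018 and 1435 CPM. Results were therefore repeated without these 3. That leaves only replicates 3 and 4 of untreated HFD, which are in another ID series than all untreated ND libraries. Diet and ID series then cannot be told apart in untreated skin.

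The 4 cytokine genes lie on mouse chromosome 2 and the receptor gene on chromosome 1, all on the plus strand of GRCm38 and all protein coding. Il1f8 spans chr2:24153161-24160519 in 5 exon blocks, Il1f9 chr2:24186476-24193568 in 5, Il1f6 chr2:24215418-24225702 in 6 and Il1f5 chr2:24276954-24283426 in 5. Il1rl2 spans chr1:40324610-40367562 in 9 exon blocks. None of the 5 shares exon bases with another annotated gene on either strand.

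The 250 bases before the start are shown for the 4 members listed in the promoter table (RefSeq, GRCm38.p6). Il1f8, Il1f9 and Il1f5 are neighbours that were called higher on the high-fat diet in untreated skin, while Il1rl2 was not. In PMA-treated skin Il1f8 was not called. Its call in untreated skin was lost with the ID series as a covariate. The RefSeq starts can differ from the gene starts given above. All are on the plus strand: Il1f8 at chr2:24152922-24153171, Il1f9 at chr2:24186226-24186475, Il1f5 (the first of its 2 listed starts) at chr2:24276704-24276953 and Il1rl2 at chr1:40324339-40324588. Capitals mark matches, on either strand, to TGANTCA (AP-1), GGGNNNNNCC (NF-kB) or TTNCNNAA (C/EBP).
Il1f8: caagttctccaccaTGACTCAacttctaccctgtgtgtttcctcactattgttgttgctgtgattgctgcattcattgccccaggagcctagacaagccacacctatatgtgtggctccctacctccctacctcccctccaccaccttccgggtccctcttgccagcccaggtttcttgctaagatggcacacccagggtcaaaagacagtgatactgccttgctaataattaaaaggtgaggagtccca
Il1f9: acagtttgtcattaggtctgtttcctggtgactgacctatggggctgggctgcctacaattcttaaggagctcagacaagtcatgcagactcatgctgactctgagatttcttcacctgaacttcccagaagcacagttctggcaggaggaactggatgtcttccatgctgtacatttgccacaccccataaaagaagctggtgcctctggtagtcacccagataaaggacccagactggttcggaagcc
Il1f5: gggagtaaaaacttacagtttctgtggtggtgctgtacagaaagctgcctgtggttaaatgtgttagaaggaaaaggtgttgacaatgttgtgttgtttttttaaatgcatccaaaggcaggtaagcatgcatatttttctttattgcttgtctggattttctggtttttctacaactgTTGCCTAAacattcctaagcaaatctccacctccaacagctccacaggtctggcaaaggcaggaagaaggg
Il1rl2: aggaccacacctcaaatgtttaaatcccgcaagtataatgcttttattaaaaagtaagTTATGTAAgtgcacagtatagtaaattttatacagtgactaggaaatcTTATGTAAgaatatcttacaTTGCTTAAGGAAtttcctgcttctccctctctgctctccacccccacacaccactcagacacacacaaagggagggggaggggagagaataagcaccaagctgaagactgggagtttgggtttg
The AP-1 letters occur in Il1f8 alone, as TGACTCA starting 236 bases before its RefSeq start. Of 32851 promoter windows of this length, 6.75% hold such a match. The C/EBP letters occur 1 time in Il1f5 and 4 times in Il1rl2, where the last 2 matches overlap, and 36.8% of windows hold at least 1. The Il1f9 window has no match to any of the 3 motifs. The NF-kB letters, which 45.8% of windows hold, are in none of the 4 windows shown. The window of the second listed start of Il1f5, at chr2:24277021-24277270 and not shown, holds 1 NF-kB match, GGCTCCTCCC starting 63 bases before that start, and none to the other motifs. A match is a run of letters and not evidence of binding.

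Il1f6, which encodes IL-36 alpha, had the largest fold differences of the members for the diet, for PMA in ND mice and for both together. In PMA-treated HFD skin it had 72.7, 52.5, 69.4 and 74.6 CPM in replicates 1 to 4. In PMA-treated ND skin it had 28.3, 27.5, 23.3 and 30.7 CPM. All 4 PMA-treated HFD libraries were above all 4 PMA-treated ND libraries. In untreated HFD skin it had 52.0, 39.8, 31.7 and 26.0 CPM, and in untreated ND skin 11.0, 7.85, 4.71 and 5.50 CPM. Again the HFD libraries were all above the ND libraries, and untreated HFD overlapped with PMA-treated ND. Group means were 67.3 ± 10.1, 27.5 ± 3.08, 37.4 ± 11.3 and 7.26 ± 2.82 CPM in PMA-treated HFD, PMA-treated ND, untreated HFD and untreated ND skin (SD, n = 4 each).

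Il1f6 rose under the diet in PMA-treated skin, by 1.29 ± 0.23 on the log2 scale (SE, edgeR quasi-likelihood test, adjusted p = 0.0068), and in untreated skin, by 2.37 ± 0.25 (edgeR adjusted p = 2.10e-05). It also rose with PMA in HFD mice, by 0.85 ± 0.23 (edgeR adjusted p = 0.0182), and in ND mice, by 1.93 ± 0.25 (edgeR adjusted p = 2.44e-05). The call in HFD mice was lost without replicate 1 of PMA-treated HFD, or without replicate 3 or 4 of untreated HFD (edgeR adjusted p between 0.0509 and 0.0791). Under both agents together it rose by 3.22 ± 0.25 over untreated ND skin (edgeR adjusted p = 3.11e-08). The change between PMA-treated ND and untreated HFD skin was -0.44 ± 0.23 and was not called (edgeR adjusted p = 0.259). Within the ID series shared by untreated ND and 1 untreated HFD library, the diet difference was 2.86. That HFD library, replicate 1, had the highest Il1f6 of its group, 52.0 CPM, and was among the libraries rich in hair genes. Within the other series the PMA difference in HFD mice was 1.04 ± 0.19 (edgeR adjusted p = 0.00266).

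Il1f8, which encodes IL-36 beta, was lowest in untreated ND skin. In PMA-treated HFD skin it had 69.5, 103.2, 85.9 and 91.5 CPM, and in PMA-treated ND skin 59.2, 37.5, 73.5 and 70.8 CPM. These groups overlapped. In untreated HFD skin it had 74.6, 82.2, 78.7 and 88.3 CPM, and in untreated ND skin 43.2, 49.9, 32.0 and 24.4 CPM, without overlap. Group means were 87.5 ± 14.0, 60.3 ± 16.4, 81.0 ± 5.79 and 37.4 ± 11.4 CPM in PMA-treated HFD, PMA-treated ND, untreated HFD and untreated ND skin (SD, n = 4 each).

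Il1f8 rose with the diet in untreated skin, by 1.11 ± 0.21 on the log2 scale (edgeR adjusted p = 0.0044), whereas the diet difference in PMA-treated skin was 0.54 ± 0.21 and was not called (edgeR adjusted p = 0.193). It rose with PMA in ND mice, by 0.69 ± 0.21 (edgeR adjusted p = 0.0353), although its groups overlapped, and had a difference of 0.11 ± 0.21 in HFD mice (edgeR adjusted p = 0.812). Leaving out 11 of the 16 libraries in turn ended the call in ND mice (edgeR adjusted p up to 0.121). With both agents it rose by 1.23 ± 0.21 (edgeR adjusted p = 2.25e-04). With the ID series as a covariate, the diet difference in untreated skin was 1.00 ± 0.32 (edgeR adjusted p = 0.18). That of PMA in ND mice was 0.53 ± 0.40 (edgeR adjusted p = 0.608) and that of both agents 1.07 ± 0.40 (edgeR adjusted p = 0.118). None of these 3 calls held there, where the SEs were larger than the 0.21 without the covariate. Within 1 ID series, the diet difference in untreated skin was 1.01 ± 0.33 (edgeR adjusted p = 0.215), with 1 HFD library.

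Il1f9, which encodes IL-36 gamma, differed in the same direction for each agent. In PMA-treated HFD skin it had 263.2, 260.6, 220.2 and 216.4 CPM, and in PMA-treated ND skin 141.0, 128.2, 162.2 and 165.3 CPM. In untreated HFD skin it had 142.3, 136.8, 119.5 and 117.3 CPM, and in untreated ND skin 71.6, 90.4, 75.0 and 63.3 CPM. PMA-treated HFD libraries lay above all others and untreated ND libraries below all others, while PMA-treated ND and untreated HFD overlapped. Group means were 240.1 ± 25.2, 149 ± 17.7, 129 ± 12.5 and 75.1 ± 11.4 CPM in PMA-treated HFD, PMA-treated ND, untreated HFD and untreated ND skin (SD, n = 4 each).

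The diet rise of Il1f9 was 0.69 ± 0.13 in PMA-treated skin (edgeR adjusted p = 0.00813) and 0.78 ± 0.13 in untreated skin (edgeR adjusted p = 0.00135) on the log2 scale. The PMA rise was 0.90 ± 0.13 in HFD mice (edgeR adjusted p = 1.2e-04) and 0.99 ± 0.13 in ND mice (edgeR adjusted p = 2.55e-05). With both agents it rose by 1.68 ± 0.13 (edgeR adjusted p = 2.45e-08), and PMA-treated ND differed from untreated HFD skin by 0.21 ± 0.13 (edgeR adjusted p = 0.352). Without the 3 libraries rich in hair genes the diet difference in untreated skin was 0.67 ± 0.16 and was not called (edgeR adjusted p = 0.057). Within 1 ID series that difference was 0.94 ± 0.23 (edgeR adjusted p = 0.084), with 1 HFD library.

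Il1f5, which encodes the receptor antagonist, followed the diet. In PMA-treated HFD skin it had 435.6, 424.4, 507.2 and 489.5 CPM, and in PMA-treated ND skin 290.8, 256.3, 308.2 and 345.1 CPM. In untreated HFD skin it had 464.8, 449.6, 438.2 and 362.7 CPM, and in untreated ND skin 272.9, 283.6, 251.9 and 223.8 CPM. All 8 HFD libraries were above all 8 ND libraries, and within each diet the PMA-treated and untreated libraries overlapped. Group means were 464 ± 40.4, 300.1 ± 37.0, 429 ± 45.4 and 258 ± 26.4 CPM in PMA-treated HFD, PMA-treated ND, untreated HFD and untreated ND skin (SD, n = 4 each).

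Il1f5 rose with the diet by 0.63 ± 0.12 in PMA-treated skin (edgeR adjusted p = 0.00813) and by 0.73 ± 0.12 in untreated skin (edgeR adjusted p = 9.46e-04) on the log2 scale. The PMA difference was 0.11 ± 0.12 in HFD mice (edgeR adjusted p = 0.617) and 0.22 ± 0.12 in ND mice (edgeR adjusted p = 0.253). With all libraries it was the only member with a call between PMA-treated ND and untreated HFD skin, where it was lower by -0.52 ± 0.12 (edgeR adjusted p = 0.00593). That call was lost without the 3 libraries rich in hair genes (-0.46 ± 0.15, edgeR adjusted p = 0.0874). Within 1 ID series the diet difference in untreated skin was 0.87 ± 0.21 (edgeR adjusted p = 0.0654), with 1 HFD library.

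Il1rl2, which encodes the receptor, overlapped between the diets in both PMA-treated and untreated skin. In PMA-treated HFD skin it had 201.2, 167.8, 171.2 and 164.1 CPM, and in PMA-treated ND skin 153.0, 156.2, 210.7 and 202.1 CPM. In untreated HFD skin it had 165.6, 139.3, 127.9 and 117.0 CPM, and in untreated ND skin 138.8, 118.8, 110.1 and 167.3 CPM. Group means were 176 ± 17.0, 181 ± 30.1, 137 ± 20.9 and 134 ± 25.4 CPM in PMA-treated HFD, PMA-treated ND, untreated HFD and untreated ND skin (SD, n = 4 each). The means of both PMA-treated groups were above those of both untreated groups, with overlapping libraries.

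The diet difference of Il1rl2 was -0.04 ± 0.15 on the log2 scale in PMA-treated skin (edgeR adjusted p = 0.942) and 0.04 ± 0.15 in untreated skin (edgeR adjusted p = 0.941), and its sign turned under several other settings. The PMA difference was 0.36 ± 0.15 in HFD mice (edgeR adjusted p = 0.131) and 0.43 ± 0.15 in ND mice (edgeR adjusted p = 0.0588), and that of both agents was 0.40 ± 0.15 (edgeR adjusted p = 0.0529). These PMA values lie near the threshold: within 1 ID series the difference in HFD mice was 0.46 ± 0.14 and was called (edgeR adjusted p = 0.0491). Between PMA-treated ND and untreated HFD skin the difference was 0.39 ± 0.15 (edgeR adjusted p = 0.0997). Within 1 ID series it was 0.49 ± 0.14 and was called (edgeR adjusted p = 0.0392). The difference of both agents was called under 3 of 9 other settings, among them DESeq2 (DESeq2 adjusted p = 0.0412).

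**Figure D1:**
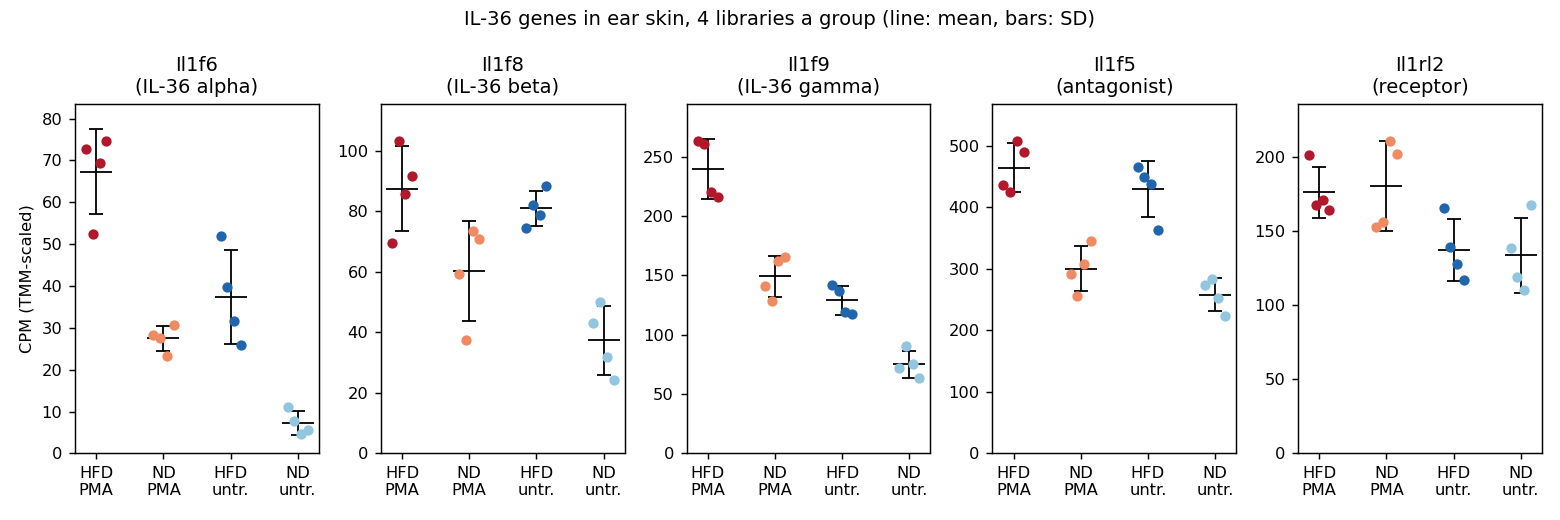
CPM of the 5 IL-36 genes (vertical axes, linear, from 0) in the 4 groups (horizontal axis). Points are libraries, lines and bars are the mean and SD of 4. Il1f5 in the 8 HFD libraries sat between 362.7 and 507.2 CPM, above the 8 ND libraries, and the Il1rl2 groups overlapped between diets.

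Counted over the 5 members, 3 rose under the diet in PMA-treated skin (Il1f6, Il1f9 and Il1f5), where 0.943% of all genes tested rose and 1.26% fell. In untreated skin 4 rose with the diet (all but Il1rl2), where 2.87% of genes tested rose and 1.06% fell. PMA raised 2 members in HFD mice (Il1f6 and Il1f9), where 7.34% of genes tested rose and 4.60% fell, and 3 in ND mice (the 3 agonists), where 8.96% rose and 3.99% fell. With both agents 4 members rose, where 14.4% of genes tested rose. Between PMA-treated ND and untreated HFD skin 1 member was lower, where 3.25% of genes tested were lower. By CPM alone, 3 and 4 members were wholly higher under the diet in PMA-treated and untreated skin, where 3.93% and 7.18% of genes tested were, and 2 and 2 were wholly higher under PMA in HFD and ND mice, where 10.8% and 10.6% of genes tested were. The median log2 difference of the 5 members was 0.63 for the diet in PMA-treated skin, 0.78 for the diet in untreated skin, 0.36 for PMA in HFD mice and 0.69 for PMA in ND mice, beside medians of all genes tested of -0.03, -0.02, -0.02 and 0.00.

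The shares of all genes rest on counts that 1 library could move by over 1.5 times. For the diet in PMA-treated skin 387 genes were called in edgeR, against 116 without replicate 2 of PMA-treated HFD and 204 and 238 without replicates 3 and 4 of PMA-treated ND. For the diet in untreated skin 691 were called, against 400 to 424 without any 1 of the untreated HFD libraries and 352 and 336 without replicates 3 and 4 of untreated ND. With the ID series as a covariate, 179 genes were called for the diet in untreated skin. For PMA in HFD mice 2101 were called, against 1205 without replicate 2 of PMA-treated HFD and 1396 without replicate 3 of untreated HFD. The members called for the diet numbered 3 in PMA-treated and 4 in untreated skin with each of the 16 libraries left out in turn.

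Without the 3 libraries rich in hair genes, 3 members were called for the diet in untreated skin and 0 between PMA-treated ND and untreated HFD skin. With fewer libraries, 171 genes in all were then called for the diet in untreated skin, against 691 with all libraries. Within 1 ID series the diet count in untreated skin was 1 (Il1f6), in a contrast of 1 against 4 libraries, and the count between PMA-treated ND and untreated HFD was 2.

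**Figure D2:**
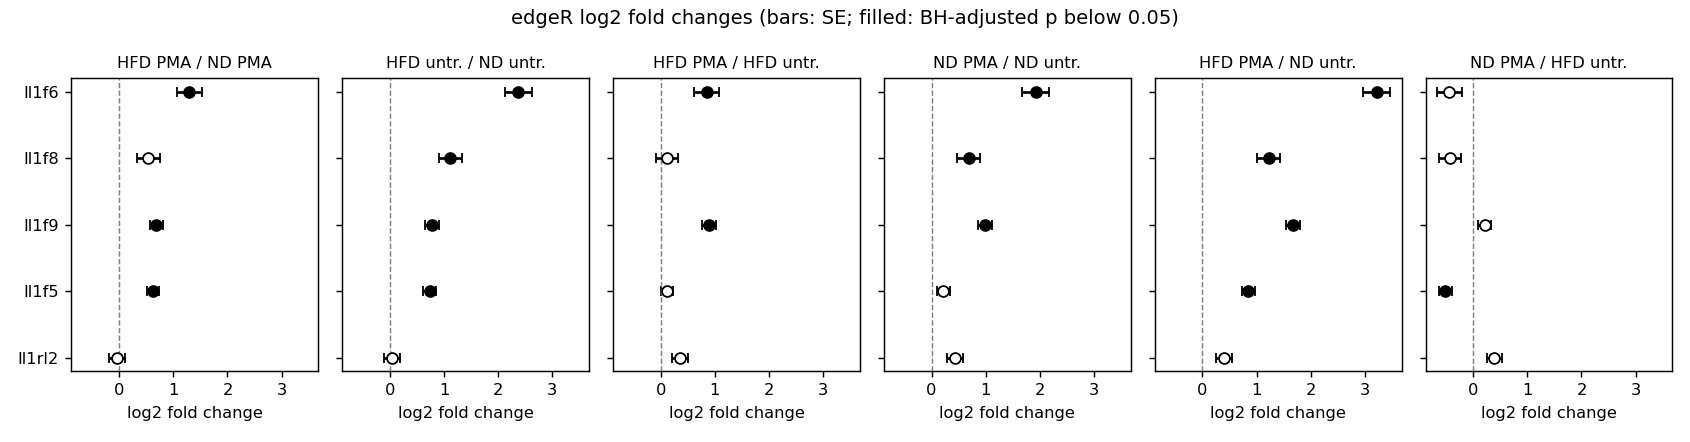
Log2 fold change (horizontal axes) of each member in the 6 comparisons between groups, 1 panel each, with the first-named group on top of the fold. Bars are SE and filled points have an edgeR adjusted p below 0.05. Il1f6 reached 3.22 for both agents together, and Il1rl2 had an unfilled point in all 6 panels.

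Whether the diet effect differed between PMA-treated and untreated skin was tested by the interaction, and no member was called in edgeR or in DESeq2, where 0.00568% of genes tested were in edgeR, and 1 had an unadjusted p below 0.05. Il1f6 had the widest interaction among the members, -1.08 ± 0.33 on the log2 scale, with an unadjusted p of 0.00415 and an edgeR adjusted p of 0.74. Without the 3 libraries rich in hair genes it was -0.71 ± 0.36. Il1f8 had -0.57 ± 0.29 (edgeR adjusted p = 0.999), and the other 3 members lay between -0.10 and -0.07. Across all genes tested, 1 passed in edgeR, 21 in DESeq2 and 815 had an unadjusted p below 0.05.

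Levels of different genes were compared as CPM per kb of the gene length in the deposited table. In PMA-treated HFD skin Il1f9 averaged 146 CPM per kb, Il1f5 103, Il1f6 76.2, Il1f8 71.9 and Il1rl2 25.8. In PMA-treated ND skin the averages were 90.5 CPM per kb for Il1f9, 66.8 for Il1f5, 49.5 for Il1f8, 31.1 for Il1f6 and 26.5 for Il1rl2. In untreated HFD skin Il1f5 led with 95.4 CPM per kb, before Il1f9 with 78.3, Il1f8 with 66.5, Il1f6 with 42.3 and Il1rl2 with 20.2. In untreated ND skin Il1f5 averaged 57.4 CPM per kb, Il1f9 45.6, Il1f8 30.7, Il1rl2 19.6 and Il1f6 8.22. Per kb, mean Il1f9 was thus above Il1f5 in both PMA-treated groups and below it in both untreated ones. Mean Il1f6 per kb was below its receptor in untreated ND skin alone. These orders depend on the division by gene length: in CPM, mean Il1f9 was below Il1f5 and mean Il1f6 below Il1rl2 in every group.

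The 3 agonists together averaged 294 ± 8.79 CPM per kb in PMA-treated HFD skin, 171 ± 23.8 in PMA-treated ND, 187 ± 16.8 in untreated HFD and 84.5 ± 17.4 in untreated ND skin (SD, n = 4 each). The log2 ratio of this sum to Il1f5, taken within each library, averaged 1.51 ± 0.17 in PMA-treated HFD, 1.35 ± 0.06 in PMA-treated ND, 0.97 ± 0.11 in untreated HFD and 0.54 ± 0.16 in untreated ND skin. As linear ratios these means are 2.85, 2.56, 1.96 and 1.45. The level of the ratio depends on the division by gene length: without it the log2 ratio averaged -0.23, -0.34, -0.79 and -1.12 in the same order of groups, so that the agonist sum was below Il1f5 in each. The ratio was higher in all 4 PMA-treated libraries than in all 4 untreated ones of the same diet, by 0.54 on the log2 scale in HFD and 0.82 in ND mice. For the diet the groups did not overlap in untreated skin, with a difference of 0.43, but overlapped in PMA-treated skin, with a difference of 0.16. Without the division by gene length these differences were 0.56, 0.78, 0.33 and 0.11, with overlap in the same comparison alone. No p is given for this ratio, since it is a score over genes chosen with earlier results of these data known.

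Il1f9 gave the greatest part of the agonist sum in every group, 49.5 ± 3.96% in PMA-treated HFD, 53.0 ± 1.88% in PMA-treated ND, 41.8 ± 0.54% in untreated HFD and 54.6 ± 5.69% in untreated ND skin (SD, n = 4 each). Its share in untreated HFD skin, 41.1 to 42.4%, lay below that of the other 12 libraries. The share of Il1f6 was 26.0 ± 4.28% in PMA-treated HFD, 18.5 ± 3.33% in PMA-treated ND, 22.3 ± 4.82% in untreated HFD and 9.66 ± 2.86% in untreated ND skin. All 4 untreated ND libraries, at 6.92 to 13.6%, were below the other 12. Without the division by gene length the Il1f6 share was 17.1, 11.8, 14.9 and 6.04% in the same order of groups. Il1f8 gave 24.5 ± 3.82%, 28.5 ± 4.53%, 35.9 ± 5.12% and 35.8 ± 3.95% in the same order of groups. The agonist mix of untreated HFD skin thus held about as much Il1f8 as that of untreated ND skin, with more Il1f6 and less Il1f9.

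**Figure D3:**
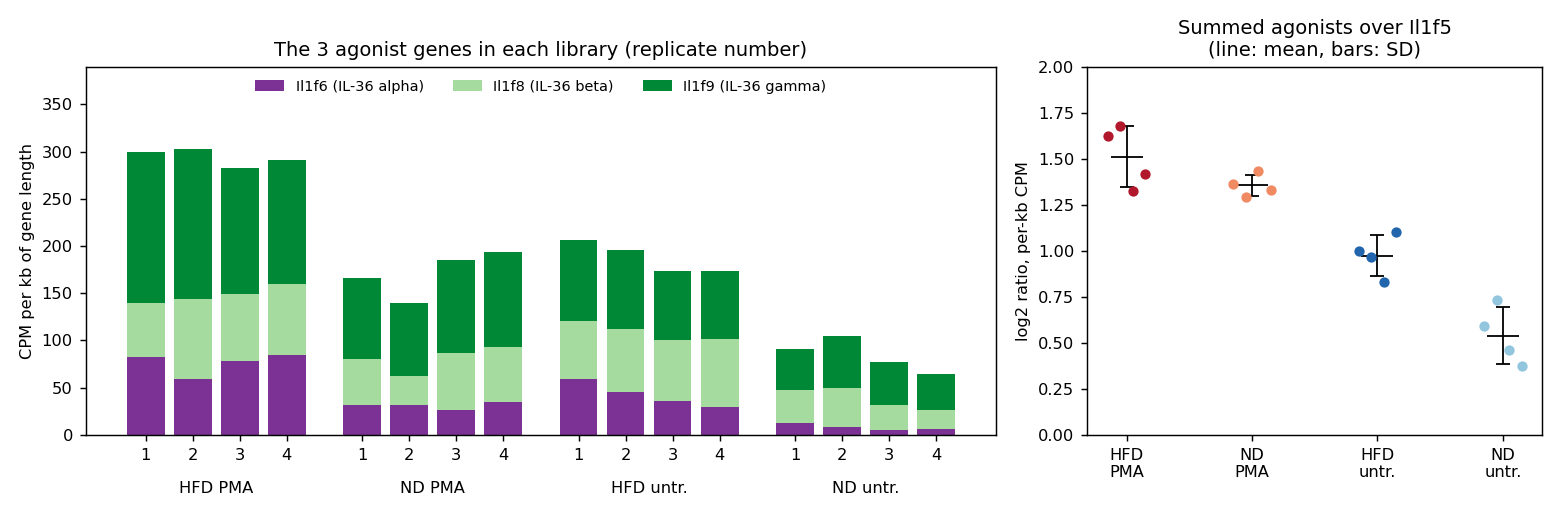
Left, CPM per kb of the 3 agonist genes stacked for each library (vertical axis from 0; horizontal axis, replicate numbers by group). Right, log2 ratio of that sum to Il1f5 per library, with mean and SD of 4 per group: the untreated ND libraries lay lowest, and the PMA-treated groups, with means of 1.51 and 1.35, overlapped.

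In bulk skin, more cells of a type and more RNA per cell cannot be told apart, and keratinocyte markers moved with the groups. The summed level of 10 epidermal keratinocyte markers was 29320 to 33803 CPM in PMA-treated HFD, 25511 to 29971 in PMA-treated ND, 24129 to 25289 in untreated HFD and 18457 to 22227 in untreated ND skin. Members were therefore also expressed relative to the mean log2 CPM of these markers within each library. Il1f6 was then higher by 1.14 (diet, PMA-treated skin), 2.16 (diet, untreated skin), 0.73 (PMA, HFD mice) and 1.75 (PMA, ND mice) on the log2 scale, with groups that did not overlap except for PMA in HFD mice. Il1f9 was higher by 0.55, 0.59, 0.75 and 0.78 in the same order, without overlap in any of the 4. Il1f5 was higher by 0.50 and 0.53 for the diet, without overlap, and differed by -0.03 and 0.01 for PMA, with overlap.

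Il1f8 relative to these markers differed by 0.43, 0.96, -0.05 and 0.48, and its groups were apart for the diet in untreated skin alone. Il1rl2 differed by -0.16 and -0.15 for the diet and by 0.22 and 0.23 for PMA, with overlap throughout. For the diet, 3 members in PMA-treated and 4 in untreated skin were thus wholly higher relative to keratinocyte markers, where 1.80% and 2.84% of genes tested were. For PMA, 1 member in HFD and 2 in ND mice were, where 6.62% and 5.40% of genes tested were.

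Markers of suprabasal and granular keratinocytes, the differentiated layers, moved with the diet and with PMA. Summed over 8 genes they stood at 8191 to 10465 CPM in PMA-treated HFD, 5543 to 7644 in PMA-treated ND, 10248 to 13354 in untreated HFD and 6595 to 7074 in untreated ND skin. Of the 8, 3 rose under the diet in PMA-treated and 5 in untreated skin, among them Krt1, Flg and Casp14 in both, and 0 fell. With PMA 0 rose and 4 fell in HFD mice, and 2 rose and 0 fell in ND mice. Over all genes tested, 0.943% and 2.87% rose under the diet in PMA-treated and untreated skin. With PMA 4.60% fell in HFD mice and 8.96% rose in ND mice. Relative to these markers, Il1f6 was still higher with the diet without overlap, by 0.75 in PMA-treated and 1.30 in untreated skin. Il1f9 differed by 0.16 and -0.27, Il1f8 by 0.04 and 0.10, and Il1f5 by 0.10 and -0.33, the last with all 4 HFD libraries below all 4 ND libraries. Il1rl2 was lower, by -0.56 and -1.01, without overlap, though its own diet differences in edgeR were -0.04 and 0.04. A rise of the markers lowers every gene on this scale. The share of all genes whose groups were apart on it was not computed. The diet differences of all members thus differed in size between the 2 marker lists. Those of Il1f6, Il1f8 and Il1rl2 kept their sign with both, while Il1f9 and Il1f5 turned sign in untreated skin.

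For PMA in HFD mice the differences relative to the suprabasal and granular markers were 1.28 for Il1f6, 1.30 for Il1f9, 0.52 for Il1f5 and 0.77 for Il1rl2, with all 4 PMA-treated libraries above all 4 untreated ones, and 0.50 for Il1f8, with overlap. Il1f6, Il1f5 and Il1rl2 overlapped there relative to the epidermal keratinocyte markers. Of the 8 suprabasal and granular markers 4 fell there, which raises every gene relative to them. The share of all genes apart on that scale was not computed. For PMA in ND mice the differences were 1.84 for Il1f6 and 0.87 for Il1f9, without overlap, and 0.57 for Il1f8, 0.09 for Il1f5 and 0.31 for Il1rl2, with overlap.

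Fibroblast markers ran the other way. Their sum over 7 genes was 3840 to 6069 CPM in PMA-treated HFD, 6374 to 8978 in PMA-treated ND, 5615 to 6668 in untreated HFD and 8720 to 11091 in untreated ND skin. The part of fewer dermal transcripts in the members' diet differences was not tested.

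The cluster on chromosome 2 extends over 198.3 kb from Il1f8 to Il1rn and holds 6 protein-coding genes, of which 2 are no members. Il1f10, which encodes IL-38, lies next to Il1f5 at chr2:24291196-24293820. It averaged 6.26 ± 2.49 CPM in PMA-treated HFD, 5.73 ± 1.03 in PMA-treated ND, 10.1 ± 0.553 in untreated HFD and 8.53 ± 2.62 in untreated ND skin (SD, n = 4 each). It was called in none of the 4 diet and PMA comparisons (edgeR adjusted p between 0.146 and 0.902). Il1rn, which encodes the IL-1 receptor antagonist, lies at chr2:24336853-24351494. It averaged 348 ± 96.5 CPM in PMA-treated HFD, 188 ± 11.1 in PMA-treated ND, 201 ± 15.3 in untreated HFD and 158 ± 13.4 in untreated ND skin (SD, n = 4 each). Il1rn rose under the diet in PMA-treated skin, by 0.89 ± 0.15 (edgeR adjusted p = 0.00378), and with PMA in HFD mice, by 0.79 ± 0.15 (edgeR adjusted p = 0.00119). Its difference was 0.35 ± 0.15 for the diet in untreated skin and 0.25 ± 0.15 for PMA in ND mice (edgeR adjusted p = 0.221 and 0.306).

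**Figure D4:**
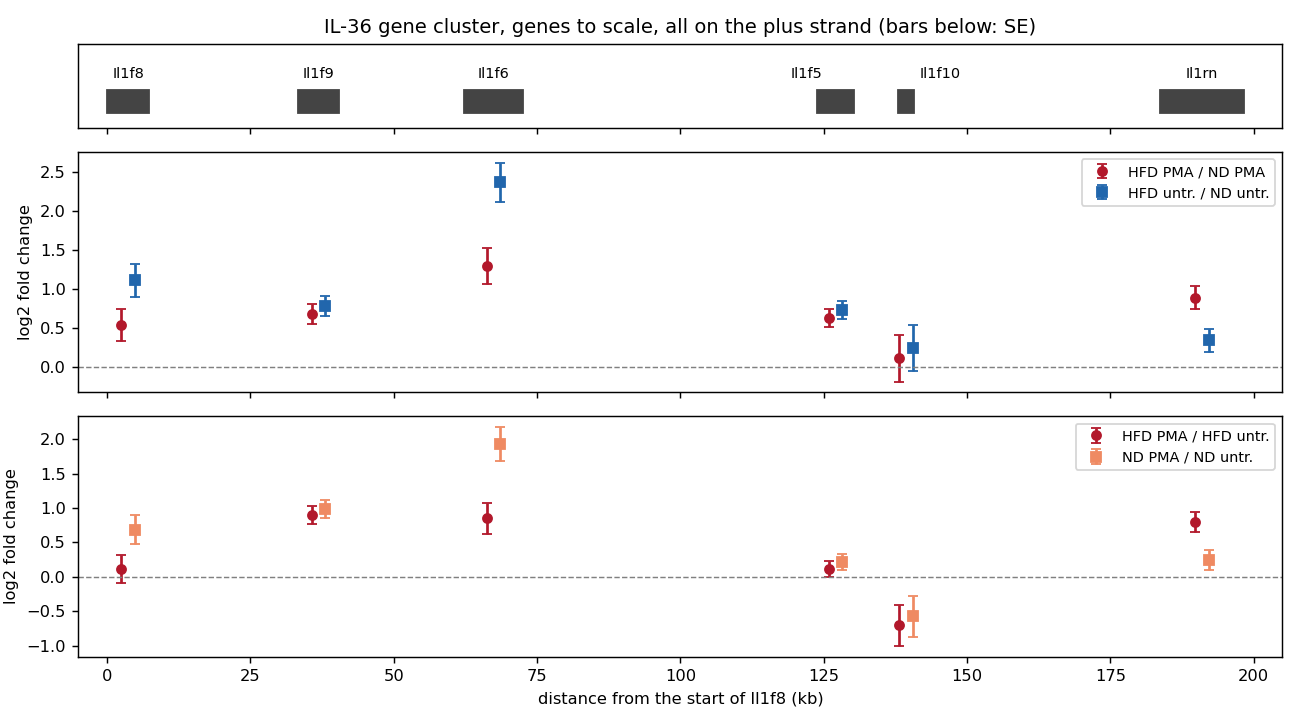
Top, the 6 protein-coding genes of the IL-36 cluster drawn to scale by distance from the start of Il1f8 (horizontal axis, kb). Below, their log2 fold changes with SE for the diet (middle) and PMA (bottom): Il1f6 had the highest diet value of the cluster, 2.37 in untreated skin, and the adjoining Il1f10 had no call in these 4 comparisons.

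The other ligands of the IL-1 family numbered 6, all tested. The diet raised 2 in PMA-treated skin (Il1rn and Il18) and 1 in untreated skin (Il18). PMA raised 2 and lowered 1 in HFD mice and changed 0 in ND mice in edgeR (1 by unadjusted p and 1 in DESeq2). Of all genes tested, 0.943% rose and 1.26% fell under the diet in PMA-treated skin, and 2.87% and 1.06% in untreated skin. With PMA 7.34% rose and 4.60% fell in HFD mice, and 8.96% and 3.99% in ND mice. Il18, an epidermal cytokine activated by inflammasomes, averaged 43.9 ± 5.04 CPM in PMA-treated HFD, 25.7 ± 5.68 in PMA-treated ND, 66.8 ± 6.35 in untreated HFD and 30.1 ± 1.96 in untreated ND skin (SD, n = 4 each). It rose with the diet by 0.78 ± 0.16 in PMA-treated and 1.15 ± 0.16 in untreated skin (edgeR adjusted p = 0.0148 and 3.17e-04), the first call being lost when only the 2 groups compared were fitted. It fell by 0.61 with PMA in HFD mice (edgeR adjusted p = 0.0157), a call that was lost without the libraries rich in hair genes or without replicate 2 of PMA-treated HFD (edgeR adjusted p = 0.0526). Il33, an alarmin held in the nucleus, rose with PMA in HFD mice by 1.17 ± 0.22 (edgeR adjusted p = 0.00165) and was likewise not called without those libraries.

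Of 7 other receptors and decoys of the family, 0 were called in edgeR for the diet in PMA-treated skin (4 by unadjusted p and 1 in DESeq2) and 1, Il18r1, was lower in untreated HFD than in untreated ND skin, at 1.69 and 6.91 CPM (-2.02 ± 0.43, edgeR adjusted p = 0.0107). Over all genes tested, 0.943% rose and 1.26% fell under the diet in PMA-treated skin, and 2.87% and 1.06% in untreated skin. With PMA, Il18rap, a chain of the IL-18 receptor, rose in HFD mice by 2.68 ± 0.48 (edgeR adjusted p = 9.51e-04). The decoy receptor Il1r2 fell by 0.49 in HFD mice and by 0.51 in ND mice (edgeR adjusted p = 0.0341 and 0.0265). The calls of Il18r1, and of Il18rap and Il1r2 in HFD mice, were lost without the libraries rich in hair genes, and that of Il18r1 also with the ID series as a covariate and within 1 ID series. Those of Il1r2 were also lost with the replicate number as a block in HFD mice and with the ID series as a covariate in ND mice. They were lost, too, without replicate 1, 2 or 3 of PMA-treated HFD or 2, 3 or 4 of untreated HFD in HFD mice (edgeR adjusted p up to 0.114), and, in ND mice, without replicate 3 or 4 of PMA-treated ND or 1 or 2 of untreated ND (up to 0.0949).

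The accessory chain and the signalling genes downstream of the receptor numbered 19, of which 2 rose under the diet in PMA-treated skin, 1 rose with it in untreated skin, and 3 and 1 rose with PMA in HFD and ND mice, with 0 lower in each. Beside these counts, 0.943%, 2.87%, 7.34% and 8.96% of all genes tested rose in the same order of comparisons. The medians of the list were 0.04, -0.02, 0.12 and 0.06 on the log2 scale. The accessory chain Il1rap averaged 75.9 ± 8.07 CPM in PMA-treated HFD, 69.1 ± 19.1 in PMA-treated ND, 54.8 ± 7.86 in untreated HFD and 78.6 ± 19.4 in untreated ND skin (SD, n = 4 each), and was called in 0 of the 6 comparisons (edgeR adjusted p between 0.133 and 0.887). Its exons overlap those of a gene on the opposite strand, so its counts are uncertain.

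Nfkbiz, which encodes IkB-zeta, a nuclear co-factor needed for many IL-36 responses of keratinocytes, rose with the diet in both settings. It averaged 129 ± 23.5 CPM in PMA-treated HFD, 64.3 ± 7.34 in PMA-treated ND, 98.0 ± 20.9 in untreated HFD and 44.6 ± 14.6 in untreated ND skin (SD, n = 4 each). The diet difference was 1.01 ± 0.21 in PMA-treated skin (edgeR adjusted p = 0.0158) and 1.14 ± 0.21 in untreated skin (edgeR adjusted p = 0.00421), the second being lost with the ID series as a covariate and within 1 ID series, and the first without replicate 2 of PMA-treated HFD (edgeR adjusted p = 0.0536). The PMA difference was 0.40 ± 0.21 in HFD and 0.53 ± 0.21 in ND mice (edgeR adjusted p = 0.26 and 0.119). Nfkbia, the NF-kB inhibitor and early NF-kB target, rose under the diet in PMA-treated skin by 1.03 ± 0.20 (edgeR adjusted p = 0.0108). Myd88, the adaptor of the pathway, rose with PMA by 0.66 ± 0.16 in HFD and 0.88 ± 0.16 in ND mice (edgeR adjusted p = 0.00854 and 7.16e-04), but shares exon bases with Acaa1a on the opposite strand. The Myd88 call in HFD mice was lost without replicate 2 of PMA-treated HFD (edgeR adjusted p = 0.059), without the libraries rich in hair genes and within 1 ID series, and that in ND mice with the ID series as a covariate. The other 2 signalling genes called for PMA in HFD mice, Tnfaip3 and Irak4, likewise lost their calls without the libraries rich in hair genes and within 1 ID series.

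IL-36 cytokines are made as precursors that proteases trim, and 8 genes for such proteases and their inhibitors were followed. The neutrophil proteases Ctsg, Elane and Prtn3 had too few counts to be tested, and 5 were tested. The diet changed 0 in PMA-treated skin (2 by unadjusted p and 0 in DESeq2) and raised 1 in untreated skin. PMA raised 3 in HFD and 3 in ND mice. It lowered 1 in HFD mice, Cst3, a call that was lost without the libraries rich in hair genes. Of all genes tested, 2.87% rose under the diet in untreated skin, 7.34% rose and 4.60% fell with PMA in HFD mice, and 8.96% rose in ND mice. Slpi, an inhibitor of neutrophil elastase, averaged 101.3 ± 47.1 CPM in PMA-treated HFD, 57.7 ± 11.3 in PMA-treated ND, 8.67 ± 5.31 in untreated HFD and 1.57 ± 0.707 in untreated ND skin (SD, n = 4 each). It rose with PMA by 3.57 ± 0.37 in HFD and 5.18 ± 0.43 in ND mice (edgeR adjusted p = 4.32e-06 and 1.13e-07), and with the diet in untreated skin by 2.42 ± 0.43 (edgeR adjusted p = 0.00271). Serpina3n and Serpinb1a, which encode serpins, rose with PMA by 1.54 ± 0.20 and 1.34 ± 0.21 in HFD mice and by 1.89 ± 0.21 and 1.34 ± 0.21 in ND mice (edgeR adjusted p at most 2.59e-04), and the Serpinb1a call in ND mice was lost with the ID series as a covariate. Ctss, a protease that activates IL-36 gamma in human cells, was called for neither agent and averaged 104 ± 25.2, 118 ± 10.9, 79.8 ± 7.86 and 77.8 ± 26.9 CPM in PMA-treated HFD, PMA-treated ND, untreated HFD and untreated ND skin (SD, n = 4 each).

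Of 20 keratinocyte genes known to be induced by IL-36, 13 had enough counts to be tested; they are also induced by other cytokines. The diet raised 3 in PMA-treated skin (Ccl3, S100a7a and Lcn2) and 3 in untreated skin (Lcn2, S100a7a and Ccl20). PMA raised 9 in HFD and 7 in ND mice, and both agents together raised all 13 tested, with 0 lower in any of these. Of all genes tested, 0.943% and 2.87% rose under the diet in PMA-treated and untreated skin. With PMA 7.34% rose in HFD and 8.96% in ND mice, and with both agents 14.4%. The list's medians were 1.59 and 1.77 for the diet in PMA-treated and untreated skin, and 3.43 and 3.17 for PMA in HFD and ND mice. Of the 13, low genes that passed through the PMA-treated HFD group alone had to differ there, so these counts and medians carry no test. With the ID series as a covariate the diet raised 1 in untreated skin and PMA 3 in ND mice. Without the libraries rich in hair genes the diet raised 1 in untreated skin, Ccl20, and the calls of Lcn2 and S100a7a there were lost.

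Lcn2, an iron-binding antimicrobial protein, averaged 64.4 ± 18.8 CPM in PMA-treated HFD, 18.1 ± 7.82 in PMA-treated ND, 3.61 ± 1.26 in untreated HFD and 0.913 ± 0.39 in untreated ND skin (SD, n = 4 each). It rose with the diet by 1.83 ± 0.31 in PMA-treated and 1.94 ± 0.40 in untreated skin (edgeR adjusted p = 0.00398 and 0.00905). The call in untreated skin was lost without the libraries rich in hair genes. Ccl20, the ligand of CCR6, averaged 10.2 ± 5.75 CPM in PMA-treated HFD, 5.33 ± 3.12 in PMA-treated ND, 9.21 ± 2.13 in untreated HFD and 1.46 ± 0.456 in untreated ND skin (SD, n = 4 each). Its diet rise in untreated skin was 2.66 ± 0.46 (edgeR adjusted p = 0.00217), lost with the ID series as a covariate and within 1 ID series. S100a7a, an antimicrobial S100 protein, rose with the diet by 3.33 ± 0.68 in PMA-treated skin (edgeR adjusted p = 0.0148), at 35.9 ± 21.8 CPM in PMA-treated HFD and 3.57 ± 0.799 CPM in PMA-treated ND skin (SD, n = 4 each). That call was lost without replicate 2 of PMA-treated HFD or replicate 2 or 3 of PMA-treated ND (edgeR adjusted p up to 0.0605), and without the filter on low counts. That of Ccl3 in PMA-treated skin was lost without replicate 2 of PMA-treated HFD or replicate 3 of PMA-treated ND.

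The neutrophil attractant Cxcl5 rose with PMA by 5.36 ± 0.95 in HFD and 5.23 ± 0.99 in ND mice (edgeR adjusted p = 0.00125 and 0.00169). S100a8 and S100a9, which form calprotectin, rose with PMA in HFD mice by 5.43 ± 1.00 and 5.28 ± 0.88 and in ND mice by 4.14 ± 1.04 and 4.06 ± 0.97 (edgeR adjusted p between 0.00179 and 0.0196). In ND mice the 3 calls were lost with the ID series as a covariate, that of S100a8 also without replicate 2 of PMA-treated ND or 1, 2 or 3 of untreated ND, and that of S100a9 without replicate 3 of untreated ND (edgeR adjusted p up to 0.0668). S100a8 averaged 363 ± 278 CPM in PMA-treated HFD, 48.2 ± 43.3 in PMA-treated ND, 8.75 ± 9.17 in untreated HFD and 2.80 ± 3.60 in untreated ND skin (SD, n = 4 each). Neutrophils also make these proteins, and the summed level of 7 neutrophil markers was 326 to 1271 CPM in PMA-treated HFD, 100.3 to 324 in PMA-treated ND, 39.6 to 67.6 in untreated HFD and 27.9 to 54.9 in untreated ND skin. S100a8 and S100a9 are themselves 2 of these 7. The other 5 summed to 67.5 to 179 CPM in PMA-treated HFD, 77.7 to 170 in PMA-treated ND, 32.6 to 38.4 in untreated HFD and 26.5 to 42.8 in untreated ND skin, so that they overlapped between diets and were apart between PMA-treated and untreated skin. Of the 7 markers, 2 were at 0 in all untreated HFD libraries and 1 in all libraries of either ND group. The part of neutrophils in these values was not tested.

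**Figure D5:**
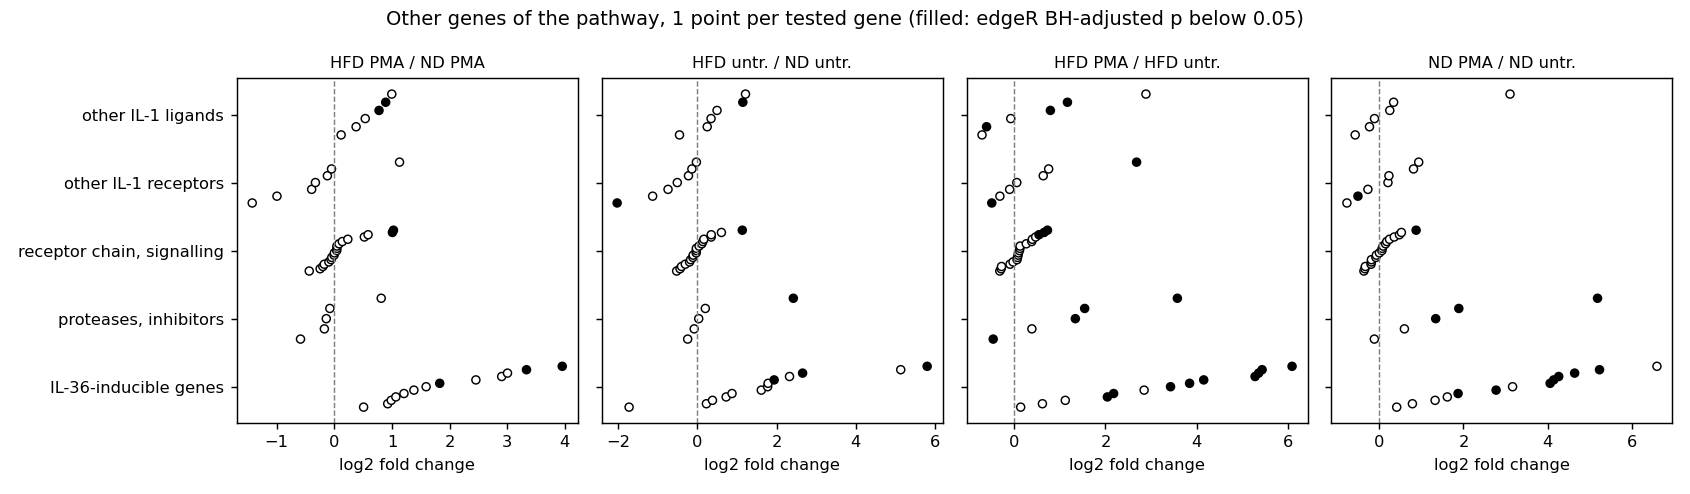
Log2 fold changes (horizontal axes) of the tested genes of 5 lists around the IL-36 receptor (vertical axis), 1 point per gene, in the diet comparisons (left 2 panels) and the PMA comparisons (right 2 panels). Filled points have an edgeR adjusted p below 0.05: 3, 3, 9 and 7 of the 13 IL-36-inducible genes tested, from left to right, all to the right of 0.

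Over the 16 libraries, Il1f6 and Il1f9 were the members most alike in log2 CPM (Pearson r = 0.91), followed by Il1f8 and Il1f5 and by Il1f6 and Il1f5 (r = 0.87 each), while Il1rl2 reached 0.61 with Il1f9 and 0.23 with Il1f5. These values are descriptions over libraries that share the 4 groups; after removal of the group means, r was 0.25 for Il1f6 and Il1f9, 0.59 for Il1f8 and Il1f5, and 0.60 for Il1f6 and Il1f5.

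Among 11631 genes with a mean of at least 5 CPM, the pattern of Il1f9 was most like that of Ehf, an epithelial ETS factor (r = 0.99), then Stmn1, Tuba1c, Glrx and Pla2g4e (r from 0.98 to 0.96). Il1f6 was most like H2afy, a histone variant gene (r = 0.96), Aox4, Endou, the epidermal protease gene Klk8 and Ankk1. Il1f8 was most like the glycolipid transfer gene Gltp (r = 0.94), Eif3m, Tmem40, the epithelial factor Klf5 and Hadh. Il1f5 was most like Chit1 (r = 0.94), Tmem40, the keratin gene Krt84, Casp14, a protease of cornifying keratinocytes, and Rpl7-ps7. Il1rl2 was most like Vwa9 (r = 0.92), Wrap53, BC100530, Hells and Nsl1, and its likeness to Vwa9 remained at 0.89 after removal of the group means, against 0.83 for Il1f9 with Ehf and 0.72 for Il1f6 with H2afy. By Spearman's rho, 2, 1, 0, 1 and 3 of the 5 genes named for Il1f6, Il1f8, Il1f9, Il1f5 and Il1rl2 stayed among the closest 5.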

How the data were processed

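RNA of mouse ear skin was sequenced from 16 libraries, 4 in each of 4 groups. Per the labels' protocols, total RNA was extracted with TRIzol, and 2 ng were amplified by SMART-Seq2, tagmented with Nextera XT and read paired-end on an Illumina instrument. The method is unstranded and uses none of the molecular tags that mark duplicates. The authors deposited whole-number counts per gene and a gene length in bases, and the raw counts were taken unchanged. The submitters' processing notes name STAR 2.3, featureCounts 1.5, GRCm38 and mm10; the sources used here do not give their settings or the annotation release.

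Genes were kept by filterByExpr (minimum count 10, minimum total 15; 17604 of 48440), scaled by TMM, fitted with edgeR 4.0.16 (robust quasi-likelihood, R 4.3.3, limma 3.58.1) as 4 group means over 16 libraries, and called at a Benjamini-Hochberg adjusted p below 0.05 over all genes tested. SEs are the absolute log2 fold change over the square root of F. CPM were computed on totals scaled by TMM factors, with a prior count of 2 on the log2 scale. Ratios were taken within libraries, with CPM divided by gene length in kb where genes are compared. For the ratio, the Il1f6 share and the keratinocyte-relative levels exact permutation tests had been planned; their p-values are not given, because they are scores over, or would be adjusted over, the chosen genes alone.

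The members and gene lists were chosen with earlier results of these data known. Named genes are the members, per list and comparison up to 4 called genes with the largest change and a mean of at least 5 CPM (or 2 with the smallest p, as values), and the 5 genes most like each member, predicted models left out; the text gives a part of them. Il1f10 falls under that rule for PMA in ND mice alone. Its other comparisons, and Il1rap, Ctss, Krt1, Flg and Casp14, stand outside it and were named after their values were seen. Also outside the rule are Lcn2, S100a7a and Il1rn for the diet in untreated skin, Il1rn for PMA in ND mice, and Nfkbiz for PMA. Positions and overlaps come from GENCODE M21 on GRCm38, where 40606 of 48440 gene IDs matched.

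Library totals of 7739487 to 15571389 counts mean that a member's lowest value rests on 49 counts; without molecular identifiers, PCR duplicates are counted too. Pearson correlations of log2 CPM within groups were 0.926 to 0.959 over 24 pairs, and no pair agreed within sampling noise (chi-square per degree of freedom at least 9.68). The test was run on simulated data with known changes. Alternatives were DESeq2 1.42.0, RLE factors, other filters, the replicate number as a block, the library ID series as a covariate or within 1 series, only the compared groups, and each library left out. Leaving out the 3 libraries rich in hair genes, and the suprabasal marker list, were chosen after seeing the data.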

Additional observations from a re-analysis of the deposited data

Results flagged for a closer look

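Over 48 groups of 4 values (member CPM, ratios, shares and keratinocyte-relative levels), 3 had a library far from the other 3 of its group by Dixon's ratio; chance flags about 1 in 20 groups. The Il1f6 share of the agonists was 19.7% in replicate 2 of PMA-treated HFD skin, against 27.5 to 29.0% in the other 3 libraries. Relative to keratinocyte markers, Il1f6 was at -6.10 on the log2 scale in replicate 3 of PMA-treated ND skin, against -5.70 to -5.63 in the other 3. Il1f8 was at -5.22 on that scale in replicate 2 of PMA-treated ND skin, against -4.57 to -4.45 in the other 3.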

How the results depend on the processing

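The counts of members called were 3, 4, 2, 3, 4, 1 and 0 for the diet in PMA-treated skin, the diet in untreated skin, PMA in HFD mice, PMA in ND mice, both agents, PMA alone against diet alone, and the interaction. With each library left out in turn they ran from 3 to 3, 4 to 4, 1 to 2, 2 to 3, 4 to 5, 1 to 1 and 0 to 0. Within 1 ID series the count for the diet in untreated skin was 1 and that for PMA alone against diet alone 2, which was 0 without the libraries rich in hair genes. With the replicate number as a block the counts were 3, 4, 2, 2, 4, 1 and 0: the block ended only the call of Il1f8 for PMA in ND mice (edgeR adjusted p = 0.0603). Over all pairs of groups, same-numbered libraries deviated together little (24 correlations from -0.067 to 0.202, median 0.0129, 2 above 0.1). Those 2 were between PMA-treated and untreated HFD, with 0.202, 0.0138, 0.116 and 0.0791 for numbers 1 to 4. Other-numbered libraries of these groups ran from -0.203 to 0.0884. Between PMA-treated and untreated ND, same-numbered libraries ran from -0.0661 to 0.0831. The numbers were not taken as pairs. The sign of Il1rl2, near 0 for the diet in PMA-treated skin, turned with DESeq2 (0.0013), RLE factors (0.0013), no filter (0.0022) and only the compared groups (0.0087), and ran from -0.108 to 0.046 with libraries left out. For the diet in untreated skin it ran from -0.0501 to 0.165 with libraries left out and was -0.11 without the hair-rich libraries. Its interaction ran from -0.202 to 0.059 with libraries left out. Without the hair-rich libraries the interaction was 0.0209 for Il1f9, 0.0601 for Il1f5 and 0.0559 for Il1rl2. By Spearman's rho 2, 1, 0, 1 and 3 of the 5 most alike genes of Il1f6, Il1f8, Il1f9, Il1f5 and Il1rl2 were shared. Differences between groups in the ratio and in the Il1f6 share moved by less than 1 pooled SD under every setting run, while their levels moved by more without the division by gene length. DESeq2 called 850 genes for the diet in PMA-treated skin and 1142 in untreated skin, against 387 and 691 in edgeR; RLE factors gave 203 higher and 183 lower in PMA-treated skin, against 166 and 221. With each library left out in turn the edgeR counts fell as low as 116 and 336. The cause of these shifts was not tested. Depth limits Il1f6 most, at 49 counts in its lowest library, and the lowest inducible genes, under 1 CPM in untreated ND skin.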
